A study of Mus musculus with 8 samples.

Results

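The NADPH supply enzymes described here are 7 genes chosen by name, Me1, G6pdx, Pgd, Taldo1, Tkt, Idh1 and Idh2, of 13305 genes measured in mouse neurospheres. Neurospheres are free-floating clusters formed by neural stem and progenitor cells, and these were secondary ones, grown from dissociated primary neurospheres of the adult hippocampus. RNA was measured on 8 one-colour Agilent arrays, 2 in each of 4 groups. The Sirt1 KO group and its WT group came from mice of the 129/ICR strain and were harvested after 6 days of culture. The resveratrol group and its DMSO group were wild-type C57BL/6 cells grown for 5 days and then given resveratrol (10, with the unit written "mm" in the label) or DMSO, the vehicle, for 24 hours. The donor mice of all groups were 7 to 9 weeks old. In the genotype groups replicate 1 was female and replicate 2 male, whereas all resveratrol and DMSO arrays came from males. How the Sirt1 allele was made, and in which cells it was lost, is not given in the sources used here. The labels do not say whether same-group arrays came from separate cultures or animals beyond that difference in sex, so the p-values cover the variation among these arrays, which may be technical.

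NADPH carries the electrons that glutathione and thioredoxin reductases use against oxidants, and that fatty acid and sterol synthesis consume. Its main cytosolic sources are the oxidative pentose phosphate pathway, malic enzyme and isocitrate dehydrogenase. The pentose phosphate pathway also makes ribose for nucleotides, which dividing cells such as neural progenitors need. SIRT1 is a deacetylase that uses the related cofactor NAD, and resveratrol, a compound from plants, is widely used as its activator.

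Me1 encodes the cytosolic malic enzyme, which turns malate into pyruvate and makes NADPH. G6pdx encodes the X-linked glucose-6-phosphate dehydrogenase, the rate-limiting entry step of the oxidative pentose phosphate pathway. Pgd encodes the next NADPH-making dehydrogenase of that pathway. Taldo1 (transaldolase) and Tkt (transketolase) make no NADPH themselves, but interconvert the sugar phosphates downstream and can return them to glycolysis. Idh1 and Idh2 are the NADP-linked isocitrate dehydrogenases of the cytosol with peroxisomes and of the mitochondria. On the mouse assembly GRCm38.p6, RefSeq places Me1 at chr9:86581363-86695914, G6pdx at chrX:74409483-74428880 and Pgd at chr4:149149991-149166705. Taldo1 lies at chr7:141392160-141402976, Tkt at chr14:30549131-30574724, Idh1 at chr1:65158616-65186479 and Idh2 at chr7:80094845-80118608.

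Me1 and G6pdx had the largest differences in the knockout and resveratrol comparisons, and their promoter windows are shown for that reason. Both genes are known targets of NRF2, the transcription factor that binds antioxidant response elements. Each window, from RefSeq on GRCm38.p6, is 300 bases long, 250 of them before the main transcription start, and is written on the gene's own strand. Capitals mark the core of the antioxidant response element, TGACNNNGC, searched on both strands. Me1 lies on the minus strand, and its window is chr9:86695865-86696164. The G6pdx window is chrX:74428831-74429130, also on the minus strand.
Me1: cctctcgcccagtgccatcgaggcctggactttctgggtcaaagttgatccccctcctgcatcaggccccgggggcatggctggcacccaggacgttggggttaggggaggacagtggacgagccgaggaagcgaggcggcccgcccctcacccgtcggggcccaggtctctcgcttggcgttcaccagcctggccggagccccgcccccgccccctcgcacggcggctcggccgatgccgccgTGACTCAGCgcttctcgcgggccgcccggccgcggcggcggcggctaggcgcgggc
G6pdx: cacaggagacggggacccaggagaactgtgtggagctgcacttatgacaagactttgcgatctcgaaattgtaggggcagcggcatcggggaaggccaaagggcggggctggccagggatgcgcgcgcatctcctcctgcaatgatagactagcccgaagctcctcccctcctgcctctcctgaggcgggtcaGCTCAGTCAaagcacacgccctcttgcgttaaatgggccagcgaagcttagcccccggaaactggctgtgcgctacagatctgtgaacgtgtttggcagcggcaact
The Me1 match begins 6 bases before the start and reads along the gene, and it also holds the letters TGANTCA, the AP-1 motif. The G6pdx match begins 57 bases before the start, reads on the opposite strand and holds no TGANTCA. A downstream Pgd window held the core as well, whereas the main-start windows of Pgd, Taldo1, Tkt, Idh1 and Idh2 did not. The core occurred in 12.4% of all 32851 windows of this length and TGANTCA in 7.81%, so a match is a description of these letters and not of a bound site.

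All values below are log2 intensities relative to the 75th percentile of the probes on the same array. The 9 probes of the members were well above background on all 8 arrays, and no spot was saturated. Tests are moderated limma fits over all 8 arrays and 13305 genes, two-sided, with Benjamini-Hochberg adjustment and a threshold of 0.05. A second fit added a block for replicate number, separate for the genotype arm and the treatment arm. This number is the slide in the resveratrol and DMSO groups, and the sex and the day of scanning in the genotype groups. A pair is the difference between arrays of the same replicate number. Pair 1 of the genotype groups spans slides 2 and 1, and the other genotype pair and both treatment pairs each lie within 1 slide.

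The spheres carried the markers of their labelled type: 10 of 10 neural stem and progenitor markers, Nes and Sox2 among them, were well above background on both arrays of every group. Of other cell types, the groups had 5 of 5 oligodendrocyte precursor, 4 to 6 of 6 astrocyte, 5 of 6 neuronal, 3 to 4 of 5 mature oligodendrocyte, 2 to 3 of 6 pericyte and fibroblast, 1 of 3 ependymal, 0 to 1 of 5 endothelial and 1 of 6 microglial markers (Csf1r). No blood marker was well above background. Replicate 2 arrays were dimmer, with a 75th percentile signal of 247 to 375 against 713 to 871 in replicate 1. The share of probes well above background ran from 53.0% in WT 2 to 71.9% in DMSO 1. The brighter Sirt1 probe read 0.42 and -0.06 in Sirt1 KO spheres, against 0.17 and 0.18 in WT spheres. The dimmer Sirt1 probe read -1.01 and -1.91 in Sirt1 KO spheres, against -1.33 and -0.98 in WT spheres. Neither probe separated the genotypes, and where they lie relative to the deletion is not given in the sources used here, so they do not check the genotype labels.

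**Figure D1:**
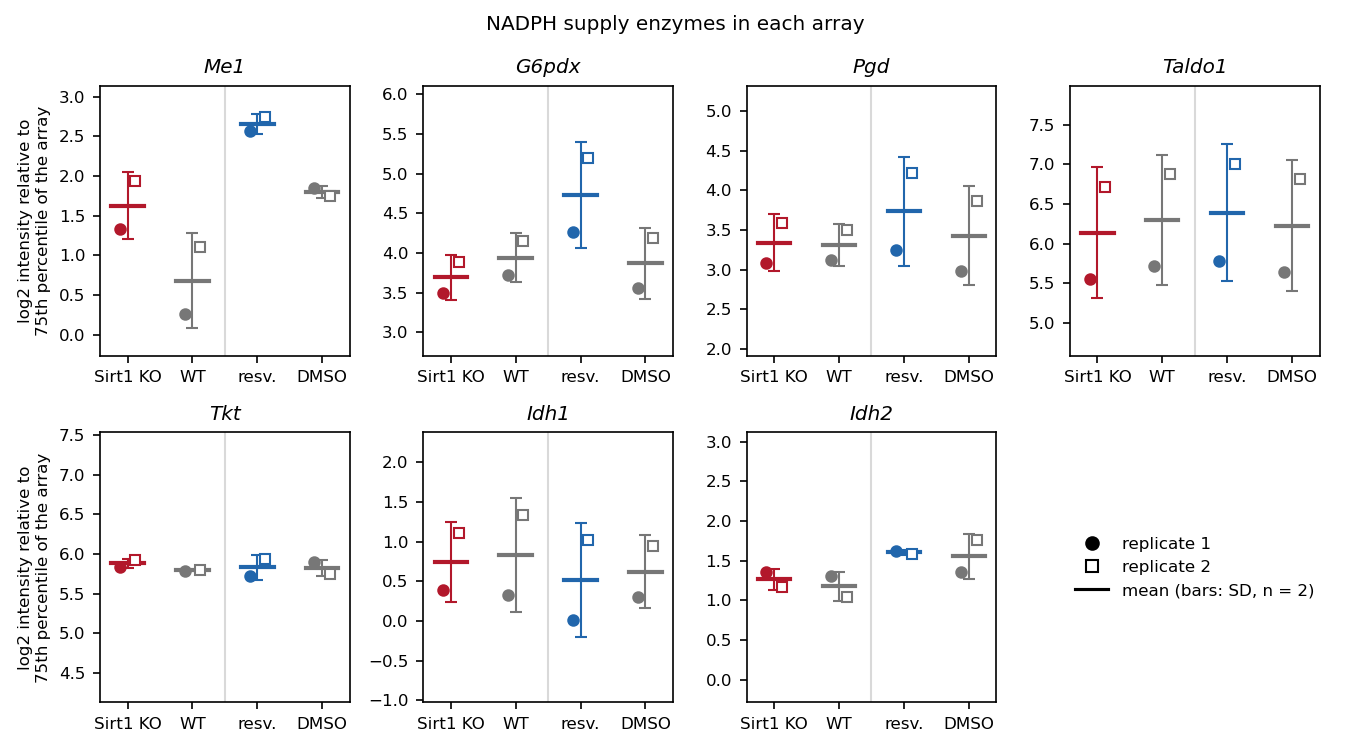
Each panel is 1 enzyme gene, with the log2 intensity relative to the 75th percentile of the array on the y axis (all panels span the same range) and the Sirt1 KO, WT, resveratrol (resv.) and DMSO groups on the x axis. Filled circles are replicate 1, open squares replicate 2, and lines with bars the mean and SD of 2 arrays. Me1 stands apart in both comparisons, G6pdx only between resveratrol and DMSO, and Taldo1 differs between replicates far more than between groups.

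Me1 was higher in Sirt1 KO spheres than in WT spheres. It read 1.33 and 1.93 in Sirt1 KO spheres, against 0.26 and 1.10 in WT spheres. The groups did not overlap, and the knockout was higher within the females and within the males, by 1.07 and 0.83. The mean difference was 0.95 (SE 0.34, 95% interval 0.13 to 1.77), a 1.93-fold higher intensity. It lay above that of 98.1% of all genes. Without a block it did not pass (limma, adjusted p = 1.0), and 0 of 7 members and 0% of all genes did. At an unadjusted p under 0.05 were 159 genes (1.2%), Me1 among them. With the replicate block the SE was 0.13 and Me1 passed (adjusted p = 0.042). It was the single member of 7 to do so, where 0.361% of all genes passed.

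The Me1 call depended on the processing. With the replicate block and quantile normalization the adjusted p was 0.071, and with that block and the authors' deposited values it was 0.056. A block for slide in place of replicate number gave a difference of 0.91 and an adjusted p of 0.50. Leaving out WT 1, the lowest array, brought the difference to 0.52. Over 13 alternatives that kept all compared arrays it lay between 0.83 and 0.97.

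Resveratrol-treated spheres also had more Me1 than vehicle-treated ones. Me1 read 2.57 and 2.75 in resveratrol-treated spheres, against 1.85 and 1.75 in DMSO-treated spheres. The groups did not overlap, and resveratrol was higher on both slides, by 0.72 and 0.998. The mean difference was 0.86 (SE 0.34, 95% interval 0.04 to 1.68), a 1.82-fold higher intensity, above 97.5% of all genes. It passed with the replicate block (limma, adjusted p = 0.041) and not without it (adjusted p = 1), where 0% of all genes passed and 202 (1.52%), Me1 among them, had an unadjusted p under 0.05. With the block it was lost under quantile normalization (adjusted p = 0.069) and in the deposited values (adjusted p = 0.069). The genotype and treatment differences of Me1 differed by 0.09 (SE 0.49, 95% interval -1.07 to 1.25). Across the groups Me1 ran in the order resveratrol, DMSO, Sirt1 KO and WT, and only DMSO and Sirt1 KO overlapped as neighbours in that order.

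G6pdx was higher with resveratrol and lay slightly lower in the knockout. It read 4.26 and 5.20 in resveratrol-treated spheres, against 3.56 and 4.19 in DMSO-treated spheres. Every treated array was above both vehicle arrays, by 0.71 on slide 1 and 1.02 on slide 2. The mean difference was 0.86 (SE 0.42, 95% interval -0.14 to 1.87), or 1.82-fold. G6pdx passed with the replicate block (limma, adjusted p = 0.028), as Me1 did, so that 2 of 7 members passed where 0.534% of all genes did. It also passed with that block under quantile normalization (adjusted p = 0.043) and in the deposited values (adjusted p = 0.040). No gene passed without a block or with the slide block. Without resveratrol 2, the highest array, the difference was 0.39.

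In the genotype groups G6pdx read 3.49 and 3.89 in Sirt1 KO spheres, against 3.73 and 4.16 in WT spheres. The groups overlapped, although the knockout was lower in both pairs, with differences of -0.23 among females and -0.27 among males. The mean difference was -0.25 (SE 0.42, 95% interval -1.25 to 0.76) and did not pass with the block either (limma, adjusted p = 0.39). It was -0.57 with the slide block, -0.46 without WT 1, -0.45 without Sirt1 KO 2, -0.05 without Sirt1 KO 1 and -0.03 without WT 2. Its sign therefore ran opposite to that of the resveratrol difference in every pair. The difference between the genotype and treatment differences was -1.11 (SE 0.60, 95% interval -2.53 to 0.31). It passed with the replicate block (limma, adjusted p = 0.043, where 0.316% of all genes passed) and not without it (adjusted p = 1). With that block it was lost under quantile normalization (adjusted p = 0.053) and in the deposited values (adjusted p = 0.052), and without resveratrol 2 it came to -0.64. A slide block in its place gave -1.43, which did not pass (limma, adjusted p = 0.64). The probe of G6pd2, a retrogene copy of G6pdx, was well above background on 7 of 8 arrays. Its difference was 0.85 between resveratrol and DMSO and 0.68 between Sirt1 KO and WT, and neither passed with the block (limma, adjusted p = 0.22 and 0.32). Signal shared between the copies cannot be told apart.

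**Figure D2:**
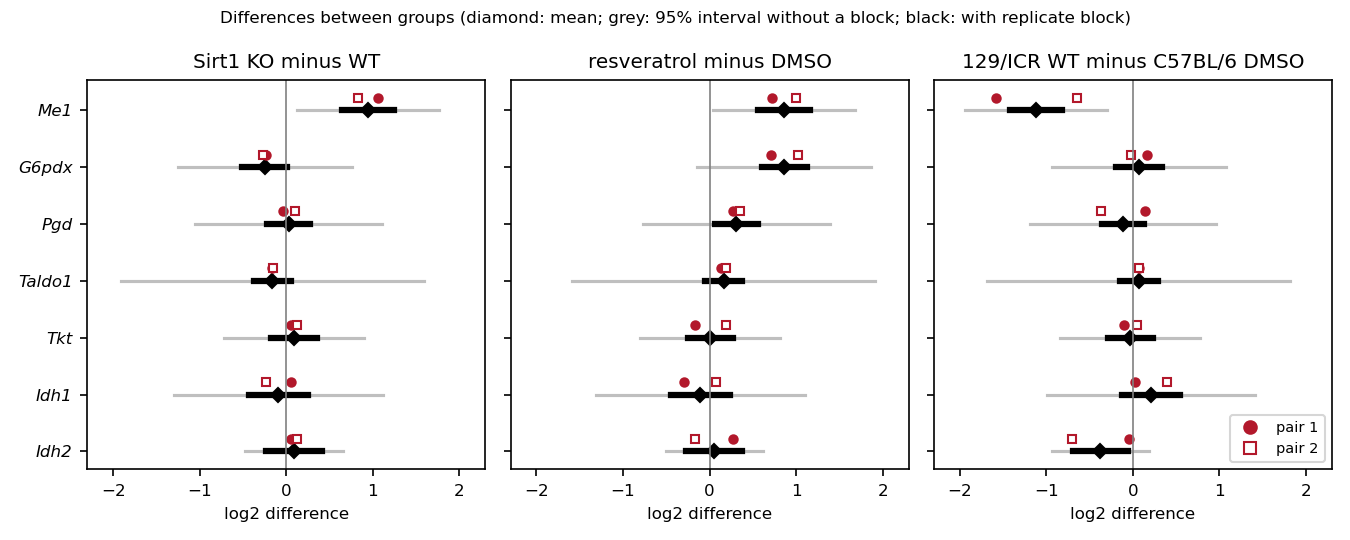
Log2 differences of the 7 enzymes for Sirt1 KO minus WT (left), resveratrol minus DMSO (middle) and 129/ICR WT minus C57BL/6 DMSO (right). Diamonds are means, grey lines 95% intervals without a block, black lines those with the replicate block, and red symbols the differences of pair 1 (circles) and pair 2 (open squares). The Me1 and G6pdx resveratrol differences lie near 0.86, and G6pdx in the knockout lies at -0.25.

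Pgd, the step after G6pdx, differed less. Its reported probe read 3.25 and 4.22 in resveratrol-treated spheres, against 2.99 and 3.87 in DMSO-treated spheres. The groups overlapped, and the slides differed more than the treatments, but resveratrol was higher on both slides, by 0.27 and 0.36. The mean difference was 0.31 (SE 0.45) and did not pass with the block (limma, adjusted p = 0.25). In Sirt1 KO spheres Pgd read 3.09 and 3.59, against 3.13 and 3.50 in WT spheres. The mean difference was 0.03 (95% interval -1.05 to 1.10), and the pairs had opposite signs. A second, dimmer Pgd probe gave differences of 0.13 in both comparisons, with the same signs as the reported probe.

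The transaldolase and transketolase genes of the non-oxidative branch gave small differences. Taldo1 read 5.56 and 6.72 in Sirt1 KO spheres, against 5.72 and 6.88 in WT spheres. It read 5.78 and 7.00 in resveratrol-treated spheres, against 5.65 and 6.81 in DMSO-treated spheres. The knockout was lower in both pairs (-0.16 each), whereas resveratrol was higher by 0.13 on slide 1 and 0.20 on slide 2. Neither difference passed with the block (limma, adjusted p = 0.51 and 0.50), and with normexp background correction the resveratrol difference was -0.0048. The replicate difference within groups was far larger: replicate 2 was higher by 1.16 to 1.22 in all 4 groups.

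Tkt read 5.84 and 5.92 in Sirt1 KO spheres, against 5.79 and 5.80 in WT spheres. The knockout arrays lay above the WT arrays, but by 0.09 on average (SE 0.34, 95% interval -0.72 to 0.90). Tkt read 5.72 and 5.94 in resveratrol-treated spheres, against 5.89 and 5.75 in DMSO-treated spheres. These groups overlapped, with a mean difference of 0.01 that became -0.11 under quantile normalization. A dim second Tkt probe read -1.95 and -1.67 in Sirt1 KO spheres, against -2.13 and -0.04 in WT spheres. It disagreed in sign with the reported probe, through WT 2.

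The isocitrate dehydrogenases did not separate the groups in either comparison. Idh1 read 0.38 and 1.10 in Sirt1 KO spheres, against 0.33 and 1.34 in WT spheres. It read 0.01 and 1.02 in resveratrol-treated spheres, against 0.30 and 0.95 in DMSO-treated spheres. Replicate 2 was above replicate 1 in all 4 groups, by 0.65 to 1.02, and the group differences were -0.09 and -0.11 (SE 0.51 each). The 95% intervals with the replicate block were -0.43 to 0.25 for Sirt1 KO minus WT and -0.45 to 0.23 for resveratrol minus DMSO.

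Idh2 read 1.36 and 1.17 in Sirt1 KO spheres, against 1.31 and 1.05 in WT spheres. It read 1.63 and 1.59 in resveratrol-treated spheres, against 1.35 and 1.76 in DMSO-treated spheres. The arrays overlapped in both comparisons, with mean differences of 0.09 and 0.05 (SE 0.24 each). With the replicate block the 95% intervals were -0.23 to 0.41 for Sirt1 KO minus WT and -0.27 to 0.37 for resveratrol minus DMSO.

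As a group the enzymes did not differ in a common direction. Between Sirt1 KO and WT spheres 3 of 7 were higher in both pairs and 2 lower, where 23.2% and 32.9% of all genes were. Groups that did not overlap, with the knockout higher, occurred for Me1 and Tkt, and for 7.51% of all genes. With resveratrol 4 of 7 were higher in both pairs and 0 lower, where 35.7% and 32.9% of all genes were. Me1 and G6pdx had resveratrol arrays entirely above the DMSO arrays, as did 10.2% of all genes. The median over the 7 was 0.03 in the knockout and 0.16 with resveratrol, beside -0.03 and 0.01 over all genes. The knockout median was -0.33 with the slide block and -0.09 with the mean of probes, and it ran from -0.22 to 0.27 when 1 array was left out. The resveratrol median was 0.04 with normexp and ran from -0.13 to 0.78 when 1 array was left out. Me1 was the member whose groups were apart and higher in both comparisons, a pattern met by 246 genes (1.85%). G6pdx and Taldo1 were lower in both genotype pairs and higher in both treatment pairs, a pattern met by 1422 genes (10.7%).

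The untreated and vehicle wild-type spheres differed in Me1 as well. WT spheres read 0.26 and 1.10, against 1.85 and 1.75 in DMSO-treated spheres. The groups did not overlap, and the mean difference was -1.12 (SE 0.34), or -0.69 without WT 1. WT and DMSO lie in different arms, so the replicate block pairs none of their arrays and only takes the replicate differences out of the error. With it Me1 passed (limma, adjusted p = 0.0015), as did 11.6% of all genes. It also passed with the slide block (adjusted p = 0.038, 1.07% of genes). Without a block it did not (adjusted p = 0.55, 0.0827% of genes). Idh2 was also apart, by -0.38, and did not pass with the block (limma, adjusted p = 0.13). Both were lower in WT spheres, where 12.7% of all genes lay wholly below DMSO. The other 5 members differed by -0.12 to 0.21. These groups differ in strain, vehicle, days of culture before the vehicle, sex for replicate 1, and slide and scan day for replicate 2, which cannot be told apart. Because this comparison shares its arrays with the other comparisons, the Me1 values of the 3 comparisons are not independent of each other.

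The enzymes that surround these steps were described from lists of related genes. A list of 21 genes held other NADPH-making and pentose phosphate enzymes and neighbours of these steps that make no NADPH themselves. Of these 21, 17 were measured and none passed in the knockout or with resveratrol, with or without the replicate block. In Sirt1 KO spheres 4 were higher in both pairs and 7 lower (median -0.10), where 23.2% and 32.9% of all genes were. The largest differences on this list were 0.63 for Aldh1l1, a cytosolic folate dehydrogenase, and 0.59 for the mitochondrial malic enzyme Me3. The sedoheptulose kinase Shpk followed at 0.52, and Prps1, which makes PRPP from ribose phosphate, at -0.35. All 4 had the same sign in both pairs. Shpk was measured well above background on 1 of 2 WT arrays.

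With resveratrol, 3 of these 17 were higher in both pairs and 9 lower (median -0.13), where 35.7% and 32.9% of all genes were. Me3 differed by -0.85, opposite in sign to its cytosolic counterpart Me1. Aldh1l2 and Mthfd2, the mitochondrial folate enzymes, differed by -0.75 and -0.59. H6pd, the G6pdx-like enzyme of the endoplasmic reticulum, was higher by 0.46. The smallest adjusted p of these 4 with the replicate block was 0.107 (limma). Me3 was also 2.05 higher in WT than in DMSO-treated spheres, which passed with the replicate block (limma, adjusted p = 0.00093), and Aldh1l1 differed there by -0.87 (adjusted p = 0.021). Neither passed without a block. The replicate block pairs no WT array with a DMSO array, and with it 11.6% of all genes passed this comparison.

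Among 9 NAD-linked dehydrogenases and neighbours of the tricarboxylic acid cycle, none passed in either comparison, with or without the replicate block. With resveratrol 6 were higher in both pairs and 1 lower (median 0.13), where 35.7% and 32.9% of all genes were. Mdh2 and Mdh1, the malate dehydrogenases, each lay 0.21 higher. In the knockout 1 was higher and 4 lower (median -0.05), where 23.2% and 32.9% of all genes were. Ogdh, a subunit of the oxoglutarate dehydrogenase, lay at 0.35 there and Aco1, the cytosolic aconitase, at -0.10.

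Of 22 NADPH-using reductases 20 were measured, and with resveratrol 11 were higher in both pairs and 7 lower (median 0.12), where 35.7% and 32.9% of all genes were. Blvrb, a biliverdin reductase, was higher by 1.05 and passed with the block (limma, adjusted p = 0.029). Nqo1, the quinone reductase, was higher by 1.22, and Ptgr1 and Akr1b8, which reduce reactive carbonyls, by 1.04 and 0.86, and these did not pass (adjusted p = 0.060, 0.096 and 0.060). In Sirt1 KO spheres 3 were higher and 9 lower (median -0.07), where 23.2% and 32.9% of all genes were, and none passed, nor did any for the difference between the comparisons. Among those lower in both pairs, the carbonyl reductase Cbr3 lay at -0.49 and the thioredoxin reductase Txnrd1 at -0.40.

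Of 20 antioxidant genes known as NRF2 targets or NRF2 partners, all 20 were higher with resveratrol in both pairs (35.7% of all genes). Their median was 0.75. The list was chosen with earlier results of these data known, so this count is a description and not an independent test. With the replicate block 7 passed, all higher (limma, 0.466% of all genes), and 0 passed without it. Osgin1 was higher by 2.45 and Srxn1, the sulfiredoxin that uses up NADPH through thioredoxin, by 2.25. The glutathione transferases Gstm1 and Gsta4 were higher by 1.44 and 1.26, the heme oxygenase Hmox1 by 1.35, the glutathione synthesis subunit Gclc by 1.01 and the ferritin light chain Ftl1 by 0.96. In Sirt1 KO spheres 9 were higher in both pairs and 3 lower (median 0.10), where 23.2% and 32.9% of all genes were, and none of the 20 passed. The largest of the same sign in both pairs were Gsta4 at 0.84, the cystine transporter Slc7a11 at 0.65, Gclm at 0.34 and Hmox1 at 0.33. The difference between the comparisons had a median of -0.55 over the list, and for Srxn1 it was -2.33 and passed with the block (adjusted p = 0.041).

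Me1 is also a lipogenic gene, and it was set beside other genes of fatty acid synthesis. Of 12 such genes 5 were higher with resveratrol in both pairs and 4 lower (median 0.02), where 35.7% and 32.9% of all genes were. In Sirt1 KO spheres 4 were higher and 3 lower (median 0.09), where 23.2% and 32.9% of all genes were. None of the 12 passed in either comparison, with or without the replicate block. Mlxipl, which encodes the carbohydrate-response factor ChREBP, lay at -1.05 with resveratrol and 0.73 in the knockout, from a probe well above background on 6 of 8 arrays. With resveratrol Thrsp lay at 0.77 and Acacb at 0.39, whereas Elovl6 lay at -0.42. In the knockout the desaturase gene Scd2 lay at 0.24, whereas Insig1 lay at -0.30 and Elovl6 at -0.255. Of 10 sirtuin and SIRT1-linked regulators, among them Ppargc1a, Foxo1 and Trp53, none passed in either comparison. In Sirt1 KO spheres 3 of them were higher in both pairs and 1 lower (median 0.06), where 23.2% and 32.9% of all genes were. With resveratrol 7 were higher in both pairs and 1 lower (median 0.16), where 35.7% and 32.9% of all genes were.

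**Figure D3:**
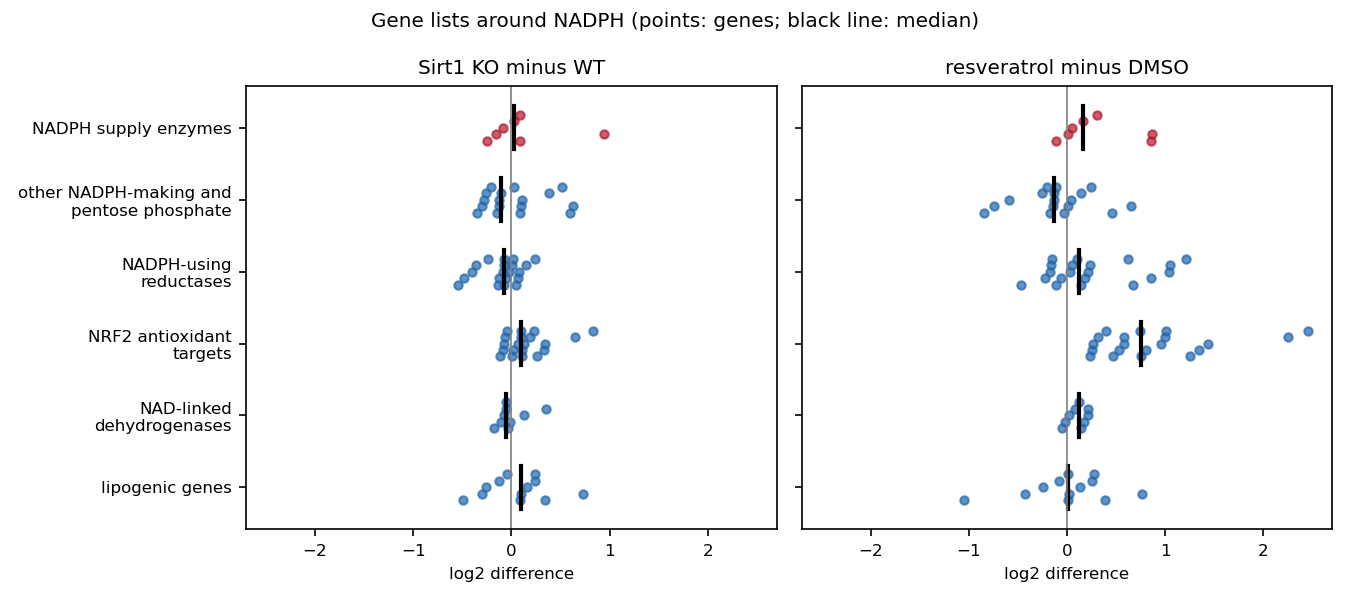
Log2 differences of single genes (points) in 6 gene lists, for Sirt1 KO minus WT (left) and resveratrol minus DMSO (right), with black lines at the list medians. The NRF2 list lies wholly right of 0 with resveratrol (median 0.75), and of the 7 supply enzymes Me1 and G6pdx lie near 0.86 there. The lists were chosen with earlier results of these data known.

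Markers of cell types and of cycling cells were compared between the same groups. No astrocyte, mitosis or oligodendrocyte precursor marker passed in the knockout or with resveratrol, with or without the replicate block. With that block 1 of 10 neural stem and progenitor markers passed as higher in the knockout and 1 as lower with resveratrol. Of 4 measured mature oligodendrocyte markers, 1 likewise passed as higher in the knockout and 1 as lower with resveratrol. Of all genes, 0.361% and 0.534% passed these comparisons with the block. Between WT and DMSO-treated spheres, 2 astrocyte and 2 oligodendrocyte precursor markers passed as lower with the replicate block, where 11.6% of all genes passed. The astrocyte list went both ways there, with 3 of 6 higher and 3 lower in both pairs. Of the neural stem and progenitor markers 2 passed as higher and 1 as lower, and 1 mature oligodendrocyte marker passed as lower. No marker of these lists passed between WT and DMSO-treated spheres without a block, and the replicate block pairs none of these arrays. The 6 astrocyte markers, of which Aldh1l1 is also among the NADPH-making enzymes, had a median Sirt1 KO minus WT difference of 0.56, and 4 were higher in both pairs. Their summed intensity, in units of each array's 75th percentile, was 43.2 and 102.9 in Sirt1 KO spheres, against 36.0 and 77.1 in WT spheres. Gfap was not well above background on both arrays of either genotype group. With resveratrol 3 astrocyte markers were higher in both pairs and 1 lower (median 0.17). Of the 10 neural stem and progenitor markers, 2 were higher and 4 lower in both genotype pairs (median 0.06). In both treatment pairs 3 of these 10 were higher and 5 lower (median -0.07). The 5 mitosis markers had a median of -0.37, with 4 lower in both pairs, and sums of 46.9 and 47.7 in Sirt1 KO spheres, against 66.5 and 62.7 in WT spheres. With resveratrol 4 of these 5 were also lower in both pairs (median -0.11), with sums of 59.0 and 48.1 in resveratrol-treated spheres, against 64.7 and 60.2 in DMSO-treated spheres. With resveratrol the 5 oligodendrocyte precursor markers had a median of -0.23, with 4 lower in both pairs and sums of 149.4 and 161.1 in resveratrol-treated spheres, against 161.4 and 205.5 in DMSO-treated spheres. In the knockout their median was -0.22, with 3 lower in both pairs and sums of 133.4 and 177.4 in Sirt1 KO spheres, against 165.4 and 192.5 in WT spheres. Their part in the Me1 and G6pdx differences was not tested. Of all genes, 23.2% were higher in both genotype pairs and 32.9% lower, and in the treatment pairs 35.7% and 32.9%. In bulk RNA, fewer cells of a type and less RNA per cell cannot be told apart.

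The members varied between replicates in ways that depended on the normalization. Taldo1 was 1.16 to 1.22 higher in replicate 2 of all groups after centring on the 75th percentile. Of all genes, 4.88% were likewise higher in replicate 2 by over 1 log2 unit in all groups. After quantile normalization that gap was 0.18 to 0.27, and in the authors' deposited values 0.08 to 0.26. Tkt showed the opposite: its gap was -0.14 to 0.22 after centring, -0.93 to -0.66 after quantile normalization and -0.98 to -0.66 in the deposited values. The Idh1 gap kept its sign in all 3, at 0.65 to 1.02, 0.58 to 0.94 and 0.41 to 0.89.

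**Figure D4:**
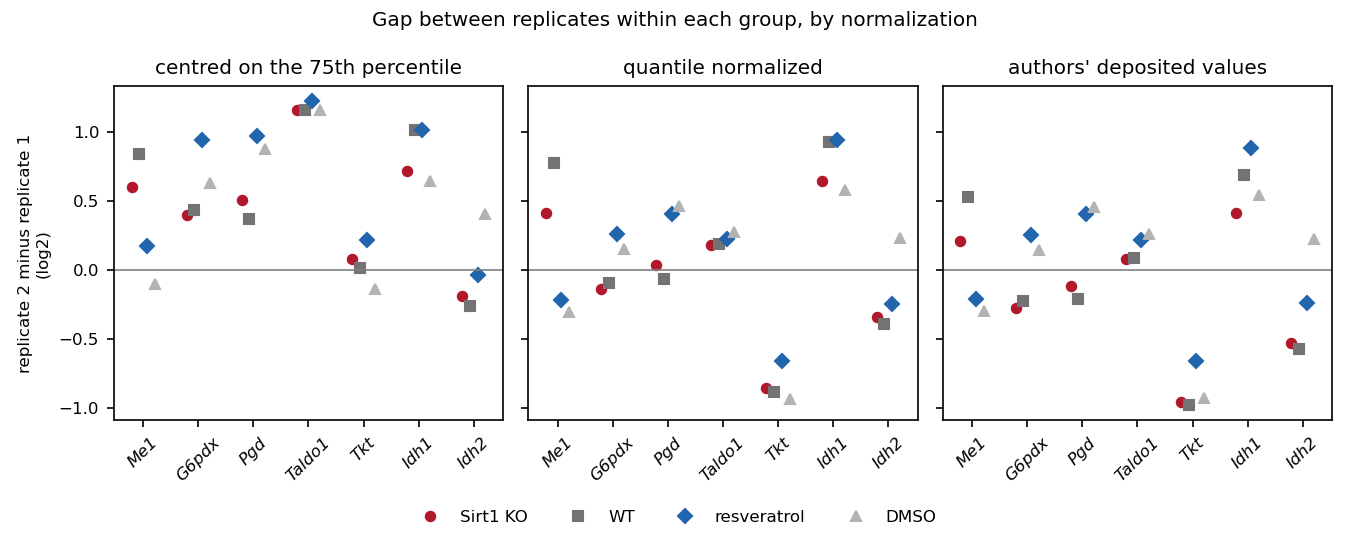
Replicate 2 minus replicate 1 (log2, y axis) for each enzyme (x axis) in the Sirt1 KO, WT, resveratrol and DMSO groups, under 3 normalizations. The Taldo1 gap of 1.16 to 1.22 shrinks to 0.18 to 0.27 after quantile normalization, and the Tkt gap moves below 0.

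Over the 8 arrays, the genes whose values ran most like those of Taldo1 were Mrps18c and Ppil3 (Pearson r = 0.999 each), and for Idh1 Fbxw11 (0.994) and Tfb2m (0.993). Me1 ran most like Neurl2 (0.978) and Trim25 (0.977), and G6pdx most like Angpt2 and Elk3 (0.980 each). Pgd ran with Klhl21 (0.990) and Ssu72 (0.985), Idh2 with Acot10 (0.944) and Entpd4 (0.942), and Tkt with Mrgprg (0.912) and Cabyr (0.835). Among the members, Taldo1 and Idh1 (0.915), Pgd and Taldo1 (0.893) and G6pdx and Pgd (0.870) ran closest, while Me1 had 0.621 with G6pdx and 0.02 with Idh1. These correlations are descriptions over arrays that share groups, slides and brightness.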

How the data were processed

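RNA from 8 neurosphere samples was hybridised to 1 array each and read with Agilent Feature Extraction 10.7, per the submitters' processing notes. The deposited scanner files give the intensity of each spot, corrected for background by that software per the file headers, with no normalization between arrays. The authors' deposited value table holds log2 values, which matched the log2 scanner signals at r = 0.993 to 0.999. It appears to have been quantile normalized in separate sets, with column medians of 6.27 to 6.28 on slides 1 and 2 and 6.00 on slide 3, and it served as an alternative.

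Of 45018 spots an array, 1639 controls were left out and spots of a probe averaged (41174 probes, of which 102 were left out for outlier marks). The log2 processed signal was centred on the array's 75th percentile. Kept were the 26281 probes that were well above background in both arrays of 1 group or more. Accessions in the files were matched to RefSeq symbols: 26846 of 41072 probes had 1 symbol, and the brightest kept probe stood for each of 13305 genes. The number of arrays limits the precision. Fits used limma 3.58.1 in R 4.3.3, with 4 group means over all arrays and an intensity trend. They were also run on simulated data with independent noise, for the block with a shift per gene by replicate number. That simulation cannot show whether the block suits these arrays.

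Arrays of the same replicate number deviated together from their group means (r = 0.736 for Sirt1 KO with WT, 0.834 for resveratrol with DMSO). Same-number arrays of different arms did so too, at r = 0.583 (Sirt1 KO with DMSO) to 0.662 (WT with resveratrol). Deviating together is therefore not particular to the pairs within an arm, and its cause was not tested. Per the file headers that number is the slide in the resveratrol and DMSO groups, and per the labels it is sex in the genotype groups, so it was fitted as a block. A slide block serves both arms at once, so its slide 2 term rests largely on the replicates of resveratrol and DMSO. The normexp alternative used the median spot signal in place of the mean, which was not used here.

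The members and lists were chosen with earlier results of these data known. All members are named with the value of every array. Other genes come from lists of other NADPH-making enzymes and neighbours, NAD-linked dehydrogenases, NADPH-using reductases and NRF2 targets. Lists of lipogenic genes, SIRT1-linked regulators and cell type markers were used as well. From a list, the genes past the adjusted p, or up to 4 with the largest difference among those of the same sign in both pairs, are named. Some genes that this rule names are not reported here.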

Additional observations from a re-analysis of the deposited data

Results flagged for a closer look

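G6pdx stood out because its genotype and treatment differences ran in opposite directions in every pair. The genotype difference minus the treatment difference was -1.11, and it passed with the replicate block (limma, adjusted p = 0.043) and not without it (adjusted p = 1). Taldo1 showed the same opposition in every pair, with a difference of -0.32, which did not pass with the block (limma, adjusted p = 0.39). A pattern lower in both genotype pairs and higher in both treatment pairs was met by 10.7% of all genes. With the slide block the G6pdx difference was -1.43 and did not pass (limma, adjusted p = 0.64). The arms differ in strain, culture, sex of replicate 1, slide layout and, for replicate 2, scan day. These cannot be told apart from the difference between knockout and drug.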

How the results depend on the processing

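The Me1 differences kept their direction in both main comparisons under every alternative run, leave-one-out included, as did the G6pdx differences. Their calls rested on the replicate block. With it, 48 genes passed between Sirt1 KO and WT (1 member), 71 between resveratrol and DMSO (2 members), 42 for the difference between these comparisons (1 member) and 1547 between WT and DMSO (1 member, Me1 at -1.12). Without a block these counts were 0, 0, 0 and 11 genes, with no member. For WT and DMSO, which lie in different arms, the replicate block pairs no arrays. At an unadjusted p under 0.05 without a block were 159, 202, 126 and 750 genes. Settings added after seeing the data combined the block with another normalization. With quantile values 18, 34, 18 and 1445 genes passed, and with the deposited values 25, 33, 23 and 1713, and G6pdx (resveratrol) and Me1 (WT minus DMSO) were the 1 member called in each, with no member called in the other comparisons. For WT minus DMSO, without a block, 22 genes passed under quantile normalization, 21 with normexp, 29 in the deposited values, 4 with probes well above background on all arrays and 6 when only the compared arrays were fitted. The slide block gave 142 genes there, with Me1 the 1 member called.

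Members near 0 changed sign. Resveratrol minus DMSO, Tkt became -0.11 under quantile normalization and in the deposited values, with or without the replicate block, and -0.10 with normexp, and Taldo1 became -0.0048 with normexp. Sirt1 KO minus WT, Pgd became -0.0047 with median centring and -0.33 with the slide block, and Tkt -0.32 as the mean of its probes. For WT minus DMSO, Taldo1 became -0.037 with normexp, -0.045 in the deposited values and -0.27 with the slide block, G6pdx -0.020 in the deposited values, Idh1 -0.043 with the slide block and Tkt 0.43 as the mean of probes. For the difference between the comparisons, Idh1 became -0.031 with median centring and -0.34 with the slide block, Idh2 -0.013 and -0.028, and Tkt -0.42 as the mean of probes. The causes were not tested.

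Leaving out 1 array at a time gave ranges. Sirt1 KO minus WT ran from 0 to 5 genes called, -0.22 to 0.27 for the median of members, -0.46 to -0.03 for G6pdx, Idh1 from -0.60 to 0.42, Idh2 from -0.040 to 0.22, Pgd from -0.22 to 0.28 and Taldo1 from -0.74 to 0.42. Resveratrol minus DMSO ran from -0.62 to 0.40 for Idh1, -0.15 to 0.25 for Idh2, -0.17 to 0.80 for Pgd, -0.45 to 0.78 for Taldo1, -0.10 to 0.12 for Tkt and -0.13 to 0.78 for the median of members. WT minus DMSO ran from 0 to 4 genes, -0.24 to 0.38 for G6pdx, -0.30 to 0.72 for Idh1, -0.56 to 0.32 for Pgd, -0.51 to 0.65 for Taldo1 and -0.10 to 0.041 for Tkt. The difference between comparisons ran from 0 to 3 genes, -0.49 to 0.53 for Idh1, -0.16 to 0.24 for Idh2, -0.34 to 0.51 for Me1, -0.77 to 0.20 for Pgd, -0.94 to 0.29 for Taldo1 and -0.027 to 0.19 for Tkt.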

Other observations

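Some antioxidant and lipogenic genes differed between the wild-type controls, whose strain, vehicle, culture, sex, slide and scan day cannot be told apart. Ftl1, the ferritin light chain, was lower in WT than in DMSO-treated spheres, with a log2 difference of -1.77, and it passed with the replicate block (limma, adjusted p = 0.00012) and with the slide block (adjusted p = 0.0499). Tigar, which diverts glucose into the pentose phosphate pathway, differed by 1.13 in that comparison (limma, adjusted p = 0.041 with the replicate block), and the NADPH-using carbonyl reductase Cbr3 by 1.12 (adjusted p = 0.0012). Thrsp, a lipogenic gene, differed by -1.41 (adjusted p = 0.0038). With the slide block Tigar, Cbr3 and Thrsp did not pass (adjusted p = 0.35, 0.73 and 0.13). None of these 4 passed without a block, and 11.6% of all genes passed this comparison with the replicate block. That block pairs no WT array with a DMSO array and only takes the replicate differences out of the error.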
